A study of Mus musculus with 9 samples.

Results

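Secreted and membrane proteins enter the endoplasmic reticulum (ER) through the SEC61 channel and fold there with the help of chaperones, lectins and disulfide isomerases. Chains that fail to fold are passed back to the cytosol and destroyed by ER-associated degradation (ERAD). The unfolded protein response (UPR) adjusts this machinery through the sensors IRE1α, PERK and ATF6, and its transcription factors XBP1 and ATF6 are known to raise the genes of chaperones, isomerases and ERAD components. The 41 genes described here span these steps: 12 are chaperones of the HSP70 and HSP90 families and their cofactors, 3 fold glycoproteins, 9 are disulfide or prolyl isomerases or oxidases, 10 belong to ERAD, 3 to the translocon, and 4 are the sensors and XBP1. They were chosen by name, with earlier results of these data known, and all 41 had a row among the 13708 genes of the deposited table.

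The data are bulk RNA-seq of macrophages (CD45+ F4/80hi CD11blow) sorted from livers of E15.5 embryos, in 5 Mrc1Cre Xpr1fl/fl samples (Cre+ below) and 4 Xpr1fl/fl samples (controls). According to the paper, Tim4hi and Tim4lo cells were sorted together, and Cre+ livers held a Tim4lo population besides the Tim4hi cells seen in controls. Bulk values do not separate these populations. Both genotypes carry loxP sites around exon 2 of *Xpr1*, the gene of a phosphate exporter, on both alleles, in a C57BL/6JRj background. Only the Cre+ animals carry Cre, expressed from the *Mrc1* locus (CD206), into which an IRES-iCre-2A-eYFP construct was inserted, as a rule on 1 allele. *Mrc1* is active in most fetal liver macrophages and also in liver sinusoidal endothelial cells, where *Xpr1* is deleted too, and because no control carries Cre, effects of Cre or of the altered *Mrc1* locus and of the deletion cannot be told apart. Nothing in the labels says that samples of a genotype came from separate embryos or litters, so p-values measure the spread between these samples only.

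Normalized counts of *Xpr1* averaged 1162 (SD 85, n = 5) in Cre+ and 1982 (SD 205, n = 4) in control samples, and those of *Mrc1* 7574 (SD 1266) and 24693 (SD 2674). The totals per sample, 26942921 to 28309443 normalized counts, are set by the normalization, so absolute depth is unknown. The column names begin with 3 dates whose meaning is not stated: Cre+ sample 5 shares its date with control samples 1 to 3, Cre+ samples 1 to 4 share another, and control sample 4 stands alone. A fit with the date as a term therefore compares Cre+ sample 5 with control samples 1 to 3. Markers of other cells moved with genotype. All 18 erythroid markers tested were lower in Cre+ samples and took 0.383% to 1.15% of the normalized counts there against 1.58% to 2.41% in controls. Cre+ sample 5 had the highest erythroid share of the Cre+ samples. All 12 hepatocyte markers were lower too (0.127% to 0.165% against 0.224% to 0.373%), as were 11 of 12 endothelial markers (0.0564% to 0.0754% against 0.0972% to 0.128%). Granulocyte (5 of 12), B and plasma cell (6 of 9) and megakaryocyte markers (4 of 7) were lower too, and 1 B and plasma cell marker was higher. Of 10 monocyte markers, 3 were higher (*Ms4a4c* by 2.05, *Plac8* by 0.91 and *Itgam* by 0.42 on the log2 scale) and 4 lower. The median log2 fold change of the 10 was −0.41 and the lowest −1.43. Together they took 0.0418% to 0.0553% against 0.0326% to 0.0458%. Of the 15 macrophage markers, 1 was higher and 7 were lower (1.23% to 1.44% against 1.6% to 2.02%). Their log2 fold changes ran from −2.04 to 0.22, with a median of −0.13. Among them *Adgre1* (F4/80), *Csf1r*, *Fcgr1* and *Mertk* missed the threshold, with log2 fold changes of 0.02, 0.14, 0.03 and 0.16 and p-values adjusted by Benjamini-Hochberg of 0.816, 0.155, 0.757 and 0.0944 (limma). No erythroid, hepatocyte, endothelial or macrophage marker was at 0 in any sample. In bulk samples, fewer cells of a type, less RNA per cell and a fall within the macrophages themselves cannot be told apart. *Cdh5* of the endothelial list, for example, is named by the paper among the macrophage identity genes reduced without *Xpr1*.

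The promoters of many of these genes are known to hold the ER stress element, the site of ATF6 with NF-Y, or its shorter form, ER stress element II. The 250 bases before the start of the canonical transcript (GENCODE mouse release 39, GRCm39) were searched on both strands for CCAAT, any 9 bases, CCACG (ER stress element) and for ATTGG, any 1 base, CCACG (element II). At least 1 of these was found in 13 of the 41 members (31.7%) and in 26 of the 12937 protein-coding genes tested (0.201%), which include these 13. Promoters of many members were known to hold the element, so these shares describe the list and are no test of it. The matches are printed 5′ to 3′ on the strand of the gene, 30 bases each, with the match in capitals, so that a match on the opposite strand begins with CGTGG and ends with ATTGG (ER stress element) or CCAAT (element II). The chaperone genes come first, in order of class.
*Hspa5*, chr2:34662032-34662061 (+): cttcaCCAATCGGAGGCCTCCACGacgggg
*Hsp90b1*, distal, chr10:86541496-86541525 (−): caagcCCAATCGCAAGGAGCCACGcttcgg
*Hsp90b1*, proximal, chr10:86541391-86541420 (−): gagtgCGTGGTGAGGCACGATTGGtgagtt
*Hyou1*, distal element II, chr9:44290652-44290681 (+): gaaccgtgaCGTGGCCCAATccgcagccag
*Hyou1*, proximal element II, chr9:44290743-44290772 (+): cagaggggcgggtcttctaCGTGGACCAAT
*Dnajc3*, chr14:119175234-119175263 (+): cacaaCCAATCAGCGCCAACCACGacccgg
*Manf*, element II, chr9:106769228-106769257 (−): tcctgggcaCGTGGACCAATgaggatgcag
*Creld2*, chr15:88703718-88703747 (+): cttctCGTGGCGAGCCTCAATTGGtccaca
*Canx*, chr11:50216621-50216650 (−): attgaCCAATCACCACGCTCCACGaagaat
*Ero1b*, chr13:12580558-12580587 (+): ggcctCGTGGTCCCGCCTCATTGGccgccg
*Syvn1*, chr19:6096557-6096586 (+): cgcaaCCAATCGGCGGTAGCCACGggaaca
*Herpud1*, element II, chr8:95112996-95113025 (+): cgggcgctgATTGGGCCACGttggacactg
*Derl3*, chr10:75729071-75729100 (+): tctacCGTGGGACTTCCCCATTGGctagcc

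For *Calr* and *Pdia6*, the last 80 bases before the start site show where the element lies. *Calr* has it on the opposite strand, from base −55 to −37 before the start, and *Pdia6* on its own strand, from −41 to −23.
*Calr*, chr8:85573668-85573747 (−): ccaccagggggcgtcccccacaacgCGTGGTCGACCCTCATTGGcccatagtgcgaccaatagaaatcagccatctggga
*Pdia6*, chr12:17316453-17316532 (+): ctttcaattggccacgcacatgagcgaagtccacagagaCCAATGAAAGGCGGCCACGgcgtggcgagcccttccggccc

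**Figure D1:**
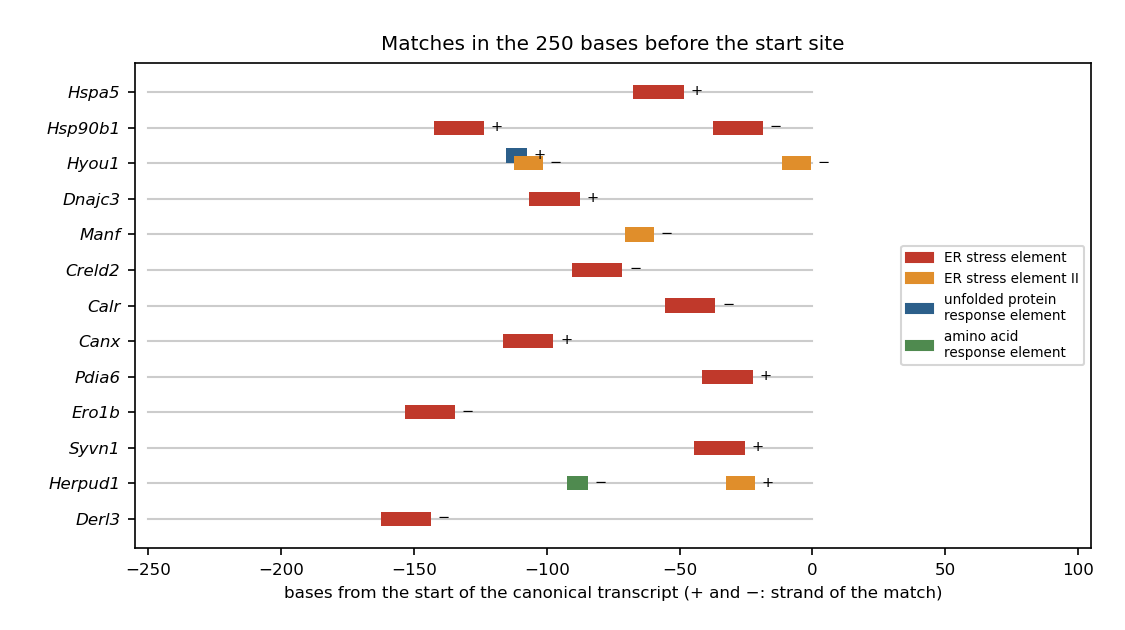
Positions of the matches in the 13 members with an ER stress element (red) or element II (orange), in bases before the start of the canonical transcript on the x axis. The unfolded protein response element (blue) of *Hyou1* overlaps its distal element II, *Herpud1* also holds an amino acid response element (green), *Hsp90b1* holds 2 ER stress elements and *Hyou1* 2 of element II.

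Most of these genes were higher in Cre+ macrophages. Differences were tested with limma on log2(normalized count + 1), with the Benjamini-Hochberg adjusted p (FDR below) taken over the 13594 genes for which 4 or more samples reached 10 normalized counts. A gene is called higher or lower at an FDR under 0.05, and changes are given as the log2 fold change of Cre+ against control samples (log2FC) with its standard error (SE). All 41 members passed this filter. Of them, 33 were higher and 1 was lower in Cre+ samples, where 21.5% of all genes tested were higher and 21.6% lower. Because earlier results were known when the members were chosen, these shares describe the list and are no test of it. The median log2FC was 0.43 over the members and 0.00 over all genes tested. With the mean log2 value of the erythroid markers as a covariate, chosen after seeing the data, 0 of the members were called. That fit called only 16 genes higher and 5 lower among all genes tested, and *Xpr1* itself was not called (limma FDR = 0.192). In it 39 members had a log2FC above 0 and the member median was 0.26, but the median and signs over all genes tested were not taken. The erythroid mean followed genotype closely (r² = 0.854), so the part of the erythroid markers and of genotype in the rise cannot be told apart. The part of the other falling markers was not tested. In 32 members every Cre+ sample lay above every control, as in 16.6% of all genes tested. The changes were of moderate size: 8 of the 33 reached 1.5-fold and 1, *Hyou1*, reached 2-fold.

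**Figure D2:**
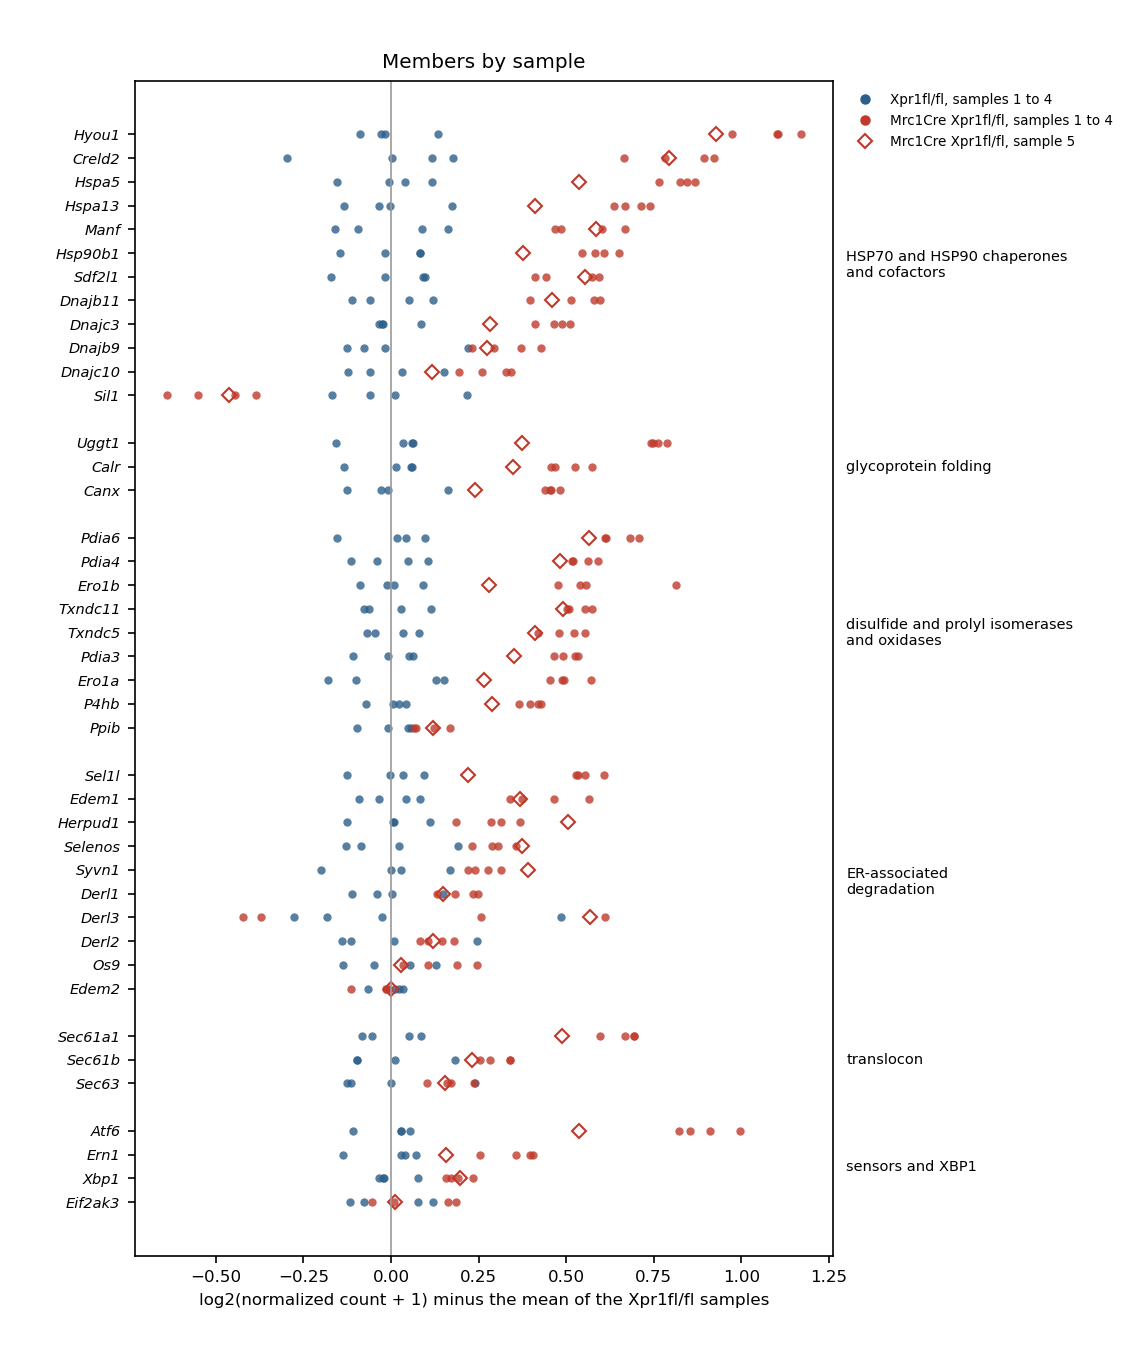
Each member by sample, as log2(normalized count + 1) minus the mean of the 4 controls (x axis), grouped by class and ordered by fold change. Blue points are controls, red points Cre+ samples 1 to 4 and open diamonds Cre+ sample 5, which was the lowest Cre+ sample for 22 of the 33 higher members.

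As a group, the members took 1.58% to 1.79% of all normalized counts in Cre+ samples and 1.14% to 1.26% in controls, so the lowest Cre+ sample, sample 5, lay above the highest control. The ratio of the means was largest for the HSP70 and HSP90 chaperones and cofactors at 1.54, followed by glycoprotein folding (1.37), the translocon (1.37), the isomerases and oxidases (1.36) and the sensors and XBP1 (1.3), and it was smallest for ERAD at 1.19. The genotypes did not overlap in any of the 6 classes. Most of the related gene lists described below did not overlap either. Cytosolic and mitochondrial chaperones, for example, took 1.08% to 1.24% in Cre+ samples against 0.928% to 1.05% in controls. The lists of UPR signalling (0.25% to 0.258% against 0.249% to 0.264%) and of the ATF4 amino acid response (0.148% to 0.165% against 0.147% to 0.156%) did overlap.

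**Figure D3:**
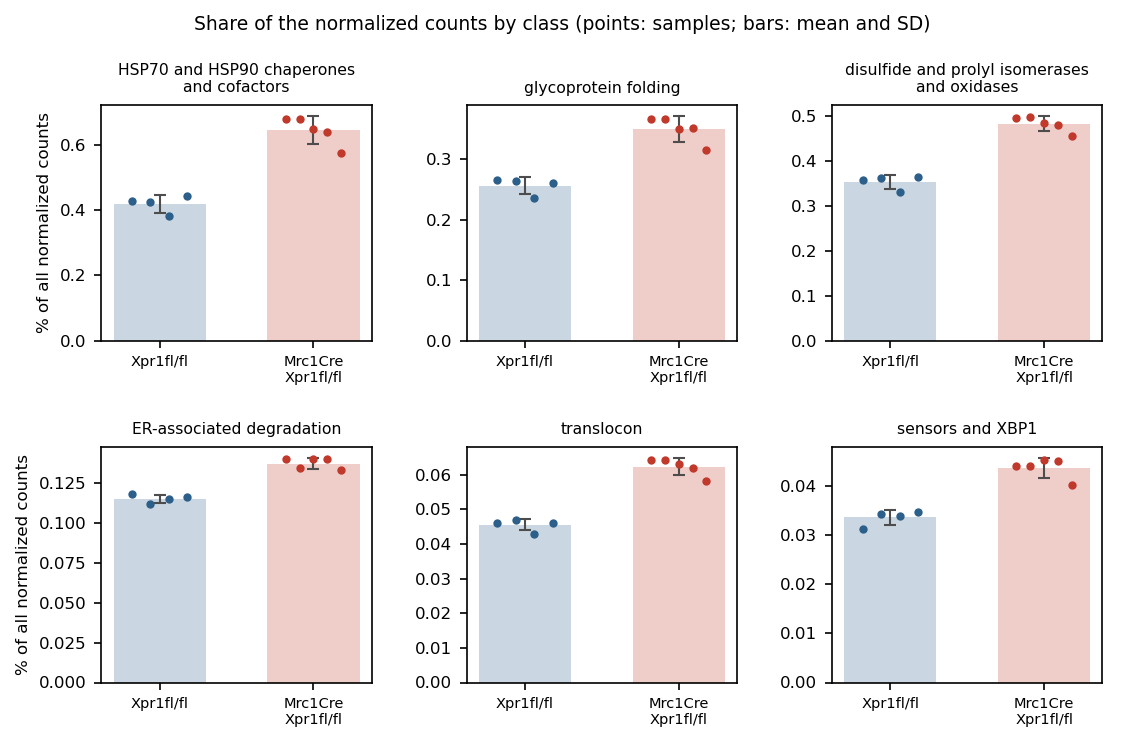
Share of all normalized counts taken by each class, in percent (y axis, starting at 0), with points for samples and bars for the mean and SD of 4 control (blue) and 5 Cre+ (red) samples. The chaperone class lay between 0.381% and 0.443% in controls and between 0.574% and 0.68% in Cre+ samples, and ERAD between 0.112% and 0.118% and between 0.133% and 0.14%.

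The date-adjusted fit called 21 of the members higher, against 4.24% of all genes tested, and all 21 were among the 33. It called 0 lower, and 1 had a lower value at an unadjusted p under 0.05. The median log2FC of the members was then 0.37. Cre+ sample 5 lay above control samples 1 to 3 of its date for 34 of the 41 members, and for 34.9% of all genes tested.

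**Figure D4:**
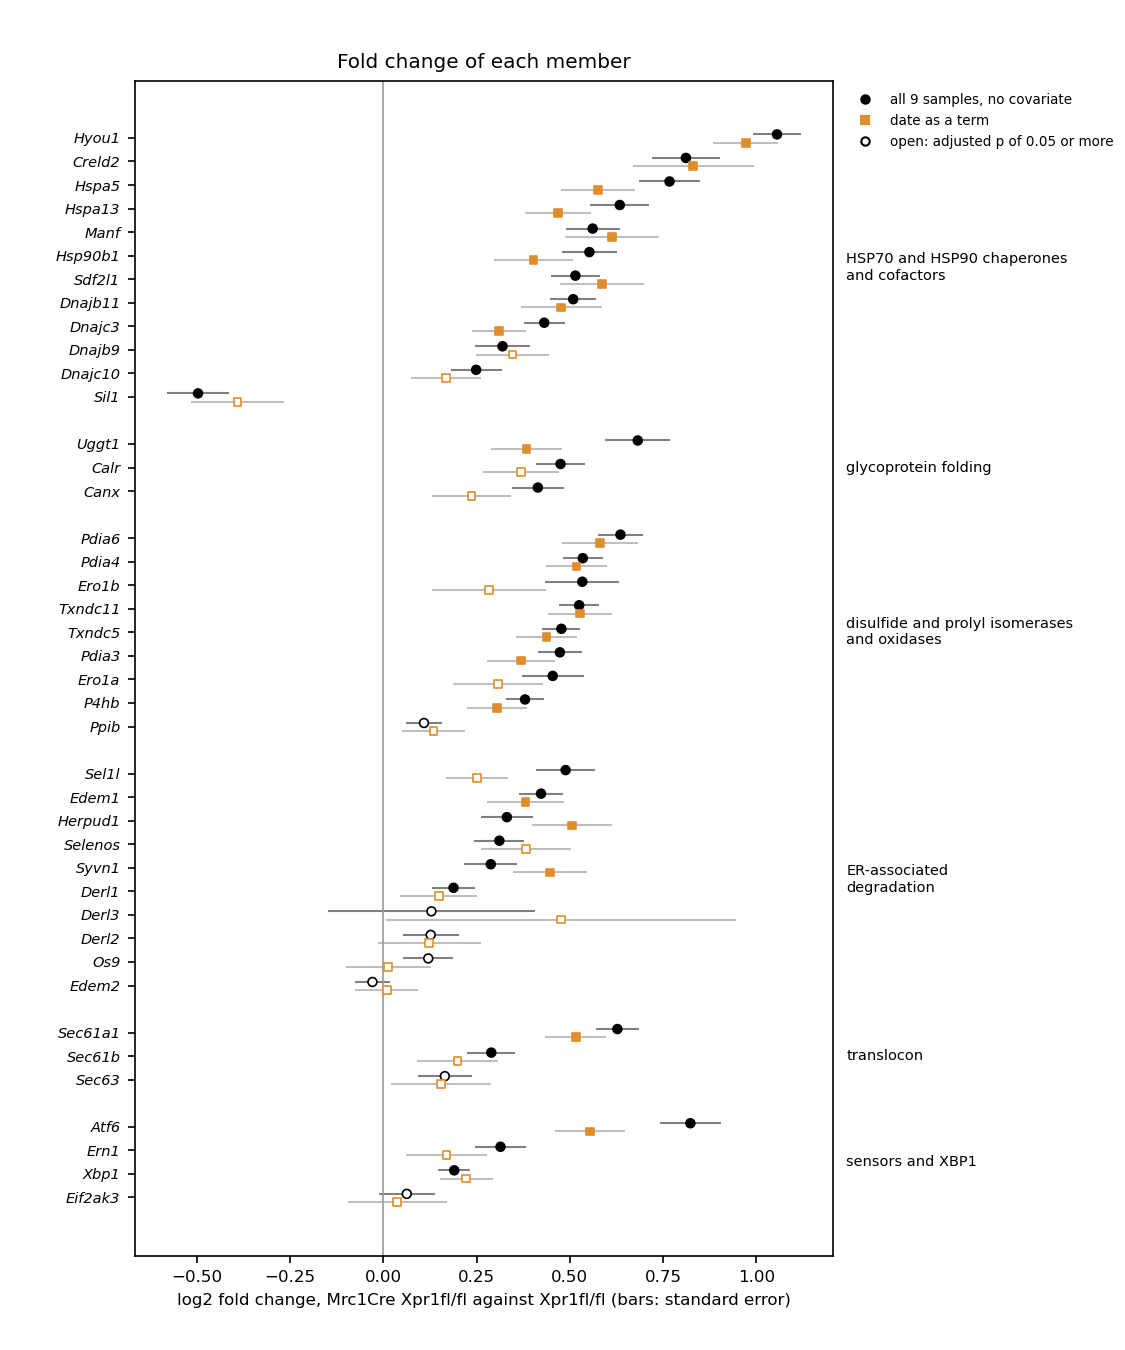
Log2 fold change of each member (x axis, Cre+ against control) with its SE, over all 9 samples (black circles) and after date adjustment (orange squares), filled where the FDR from limma is under 0.05. After date adjustment 9 of the 12 chaperones and cofactors, 6 of the 9 isomerases and oxidases, 3 of the 10 ERAD members and 1 of the 4 sensors and XBP1 are filled.

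BiP (*Hspa5*, ENSMUSG00000026864, chromosome 2, 34661982 to 34668880) is the HSP70 chaperone of the ER and holds the UPR sensors inactive while it is bound to them. It had 66460, 65430, 64485, 61826 and 52776 normalized counts in Cre+ samples 1 to 5 and 37469, 36277, 32738 and 39517 in controls 1 to 4. The lowest Cre+ sample, sample 5, was well above the highest control. Its log2FC was 0.77 (SE 0.08, limma FDR = 4.79e-05) over all samples and 0.57 after date adjustment (limma FDR = 0.00978).

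GRP94 (*Hsp90b1*, ENSMUSG00000020048, chromosome 10, 86526073 to 86541446), the HSP90 of the ER, folds clients such as Toll-like receptors and integrins. The 5 Cre+ samples had 70851, 73012, 67866, 69532 and 60304 normalized counts of it and the 4 controls 49242, 45914, 41991 and 49176, without overlap. It rose by a log2FC of 0.55 (SE 0.07, limma FDR = 0.000184) and also passed after date adjustment (limma FDR = 0.0427).

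*Hyou1* (ENSMUSG00000032115, chromosome 9, 44290418 to 44303666) encodes GRP170, a nucleotide exchange factor that frees BiP from its client. It showed the largest rise of all members, from 6559, 6508, 6244 and 7280 normalized counts in controls to 14258, 14932, 14267, 13041 and 12623 in Cre+ samples. The lowest Cre+ sample was far above the highest control. Its log2FC was 1.06 (SE 0.06, limma FDR = 3.65e-06) and 0.97 after date adjustment (limma FDR = 0.000717).

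*Sil1* encodes the other nucleotide exchange factor of BiP and was the only member that fell. It had 752, 707, 843, 808 and 799 normalized counts in Cre+ samples and 1111, 981, 1056 and 1280 in controls, so that every Cre+ sample lay below every control. This gave a log2FC of −0.50 (SE 0.08, limma FDR = 0.000807), and −0.39 after date adjustment, which missed the threshold (limma FDR = 0.0823).

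*Creld2*, which encodes an ER protein induced by ER stress, had the next largest rise of its class. It went from 1928, 1711, 1390 and 1850 normalized counts in controls to 3235, 3172, 2938, 2707 and 2957 in Cre+ samples, a log2FC of 0.81 (SE 0.09, limma FDR = 6.95e-05). Here Cre+ sample 5 was not the lowest, and the date-adjusted log2FC was 0.83 (limma FDR = 0.0151). *Manf*, which encodes an ER-resident and secreted protein that binds BiP, rose by 0.56 and by 0.61 after date adjustment (limma FDR = 0.00015 and 0.0187).

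The ER-resident DNAJ proteins bring clients to BiP or trigger its ATPase, and all 4 of them in the class were higher. *Dnajb9* (ERdj4), which restrains IRE1α, had 2152, 1878, 2069, 1962 and 1934 normalized counts in Cre+ samples and 1581, 1468, 1516 and 1862 in controls. The genotypes were separated only narrowly, since control sample 4 came close to Cre+ sample 2. Its log2FC was 0.32 (SE 0.07, limma FDR = 0.00513) and missed the threshold after date adjustment (0.35, limma FDR = 0.057). *Dnajb11* (ERdj3) rose by 0.51, *Dnajc3* (p58IPK) by 0.43 and *Dnajc10* (ERdj5), a reductase, by 0.25, and the values of *Dnajc10* overlapped between genotypes. *Dnajc10* also lost its call under 75th percentile scaling (limma FDR = 0.0527) and after date adjustment (limma FDR = 0.298). Of the rest of the class, the ATPase *Hspa13* (STCH) rose by 0.63 and *Sdf2l1*, a partner of the DNAJ proteins, by 0.51.

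Glycoproteins fold in the calnexin and calreticulin cycle, and its 3 members were all higher. Calreticulin (*Calr*, ENSMUSG00000003814, chromosome 8, 85567946 to 85573667), the soluble lectin, had 62800, 65013, 60427, 59938 and 55542 normalized counts in Cre+ samples against 45443, 44115, 39775 and 45504 in controls. Calnexin (*Canx*), the membrane-bound lectin, had 32371, 31440, 31774, 31829 and 27376 against 25979, 22723, 21269 and 23032. In both, Cre+ sample 5 lay closest to the controls. The log2FC was 0.47 for *Calr* (SE 0.07, limma FDR = 0.000228) and 0.41 for *Canx* (SE 0.07, limma FDR = 0.000868), but after date adjustment both missed the threshold (limma FDR = 0.0527 and 0.194).

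*Uggt1* encodes the glucosyltransferase that tags misfolded glycoproteins for another round in this cycle. It had 7238, 7108, 7006, 7038 and 5427 normalized counts in Cre+ samples and 3759, 4370, 4382 and 4289 in controls. Cre+ sample 5 lay far below the other Cre+ samples and still above all controls. Its log2FC of 0.68 (SE 0.09, limma FDR = 0.000138) was 0.38 after date adjustment (limma FDR = 0.0364).

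Disulfide isomerases make and reshuffle disulfide bonds, and all 6 members of the PDI family were higher in Cre+ samples in both fits. *Pdia3* (ERp57), which works with calnexin and calreticulin, had 46611, 46880, 45484, 44725 and 41344 normalized counts in Cre+ samples and 33859, 32215, 30066 and 33555 in controls, a log2FC of 0.47 (SE 0.06, limma FDR = 0.000127). *Pdia6* (P5, ENSMUSG00000020571, chromosome 12, 17316533 to 17335913), which also acts on the UPR sensors, had the largest rise, with 27437, 27972, 26112, 26192 and 25325 against 18286, 17310, 15363 and 17640 normalized counts. Its log2FC was 0.64 over all samples (SE 0.06, limma FDR = 2.66e-05) and 0.58 after date adjustment (limma FDR = 0.0105).

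*Pdia4* (ERp72) was next, with 12553, 12796, 12164, 12181 and 11870 normalized counts in Cre+ samples and 8778, 8265, 7851 and 9149 in controls. Its Cre+ samples lay close together and far from the controls (log2FC 0.53, SE 0.05, limma FDR = 3.56e-05). *P4hb* (PDI itself), *Txndc5* (ERp46) and *Txndc11*, a thioredoxin-domain protein of the ER membrane, rose by 0.38, 0.48 and 0.52.

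The ERO1 oxidases reoxidize PDI. *Ero1a* and *Ero1b* rose by 0.45 and 0.53 (limma FDR = 0.00131 and 0.00148), and both lost their call after date adjustment (limma FDR = 0.141 and 0.276). The prolyl isomerase cyclophilin B (*Ppib*) stood out from its class. All of its Cre+ samples, at 6078 to 6529 normalized counts, lay above all controls, at 5438 to 6046, but the log2FC was only 0.11 and missed the threshold (SE 0.05, limma FDR = 0.0853).

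In ERAD, 6 of the 10 members were higher, and 4 (*Derl2*, *Derl3*, *Edem2* and *Os9*) were not called. *Sel1l* (ENSMUSG00000020964, chromosome 12, 91772799 to 91815982), the adaptor of the HRD1 ubiquitin ligase, showed the largest rise. It had 7412, 7527, 7812, 7387 and 5964 normalized counts in Cre+ samples and 4694, 5244, 5114 and 5472 in controls. Cre+ sample 5 was far below the other 4 and closer to the controls than to them. The log2FC was 0.49 (SE 0.08, limma FDR = 0.000587), and the date-adjusted value of 0.25 missed the threshold (limma FDR = 0.0926).

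*Edem1*, which leads mannose-trimmed glycoproteins to degradation, had 7785, 6664, 6820, 7269 and 6785 normalized counts in Cre+ samples and 5134, 4942, 5572 and 5421 in controls. It rose by 0.42 (SE 0.06, limma FDR = 0.000238) and kept its call after date adjustment (limma FDR = 0.0495). Its relative *Edem2* was not called: 2280 to 2471 normalized counts in Cre+ samples overlapped 2357 to 2527 in controls (log2FC −0.03, SE 0.05, limma FDR = 0.638).

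*Herpud1*, a short-lived scaffold of the ligase complex, had 2604, 2381, 2707, 2552 and 2971 normalized counts in Cre+ samples and 2261, 2107, 1922 and 2105 in controls. In contrast to *Sel1l*, Cre+ sample 5 was here the highest of all samples. Over all samples its log2FC was 0.33 (SE 0.07, limma FDR = 0.00305) and 0.51 after date adjustment (limma FDR = 0.0208). *Syvn1*, the gene of the HRD1 ligase itself, behaved likewise, with log2FCs of 0.29 and 0.45 (limma FDR = 0.00712 and 0.0263) and its highest value, 3136 normalized counts, in Cre+ sample 5.

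*Selenos*, a membrane protein that recruits the p97 ATPase, rose by 0.31 (limma FDR = 0.00359, and 0.0795 after date adjustment). The derlins are channel-like membrane proteins of ERAD. *Derl1* had the smallest change of the higher ERAD members, with 5816, 5415, 5875, 5615 and 5481 normalized counts in Cre+ samples and 5485, 4583, 4814 and 4958 in controls, which overlapped. Its log2FC was 0.19 (limma FDR = 0.0199), and the call was lost without control sample 2 or 3 (limma FDR = 0.0591 and 0.057) and under both other scalings, to the 75th percentile (limma FDR = 0.154) and by quantiles (limma FDR = 0.331), as well as after date adjustment (limma FDR = 0.4). *Derl2* had a log2FC of 0.13 and passed the threshold only without control sample 1 (limma FDR = 0.192 and 0.012). *Derl3* was near the lower end of the data, at 32 to 67 normalized counts over all samples, and its log2FC of 0.13 had a SE of 0.28. The lectin *Os9* had a log2FC of 0.12 (limma FDR = 0.167) and overlapped.

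In the translocon, *Sec61a1* (ENSMUSG00000030082, chromosome 6, 88480561 to 88495899), the pore subunit of the SEC61 channel, had 11890, 12091, 12100, 11312 and 10490 normalized counts in Cre+ samples and 7060, 7759, 7205 and 7941 in controls. All Cre+ samples exceeded every control by a wide margin. It had a log2FC of 0.63 (SE 0.06, limma FDR = 2.59e-05) and 0.52 after date adjustment (limma FDR = 0.00649). *Sec61b*, the small tail-anchored subunit, had 2358, 2358, 2267, 2222 and 2188 normalized counts against 2117, 1880, 1741 and 1742, a smaller rise of 0.29 (limma FDR = 0.00415, and 0.282 after date adjustment). *Sec63*, the DNAJ protein that couples BiP to the channel, had a log2FC of 0.16, and control sample 1 (3860 normalized counts) was above every Cre+ sample (3509 to 3849). It missed the threshold over all samples (limma FDR = 0.0864) and passed without control sample 1 (limma FDR = 0.00424).

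Of the sensors and XBP1, 3 were higher over all samples, and *Atf6* alone was also called after date adjustment. *Atf6* (ENSMUSG00000026663, chromosome 1, 170532026 to 170696208), the gene of the sensor that is cut in the Golgi to release a transcription factor, had 4538, 4636, 5115, 4822 and 3723 normalized counts in Cre+ samples and 2381, 2616, 2616 and 2662 in controls. Cre+ sample 5 was the lowest Cre+ sample and far above the controls. Its log2FC of 0.82 (SE 0.08, limma FDR = 3.78e-05) was next in size to that of *Hyou1*, and it stayed past the threshold after date adjustment (0.55, limma FDR = 0.00874).

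*Ern1* (IRE1α), the kinase and RNase that splices *Xbp1* mRNA, had 1515, 1674, 1686, 1630 and 1418 normalized counts in Cre+ samples and 1156, 1297, 1335 and 1306 in controls, without overlap. It rose by 0.31 (SE 0.07, limma FDR = 0.00385) but missed the threshold after date adjustment (0.17, limma FDR = 0.361). *Xbp1* itself had 5259, 4986, 5041, 5104 and 5128 normalized counts against 4410, 4407, 4371 and 4717. The rise of 0.19 was small beside a narrow spread (SE 0.04, limma FDR = 0.00458). It was not past the threshold under 75th percentile scaling, after quantile normalization or after date adjustment (limma FDR = 0.0566, 0.168 and 0.0827). These are counts per gene, which do not show whether *Xbp1* mRNA was spliced.

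*Eif2ak3* (PERK), the kinase that slows translation through eIF2α, had 1005, 1136, 962, 1120 and 1007 normalized counts in Cre+ samples and 921, 947, 1085 and 1054 in controls. The genotypes overlapped, and the log2FC was 0.06 (SE 0.07, limma FDR = 0.528). The differences between the sensors in their response were not tested.

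Levels of different genes can be compared only per length, here as normalized counts per kilobase of the longest annotated transcript. In controls, *Calr* (16702 per kilobase), *Hsp90b1* (14297), *Pdia3* (8006), *P4hb* (7921) and *Hspa5* (7310) were the most abundant members, and the same 5 led in Cre+ samples, where *Hspa5* stood at 12456. The ERAD genes and sensors stood below these 5, from *Os9* at 1613 per kilobase in controls to *Derl3* at 33.2. Between them were *Sel1l* at 807, *Atf6* at 329 and *Eif2ak3* at 217. Genes of the folding classes overlapped this range, among them *Pdia4* at 1501, *Dnajc3* at 863 and *Ero1b* at 95.3. These levels depend on the transcript length used: with the median length of the protein-coding transcripts, *Manf* went from 845 to 4929 and *Ppib* from 1751 to 5244 per kilobase in controls.

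The members with and without an element in their promoter can be set beside these values. Of the 13 members with an ER stress element or element II, 12 were higher (all but *Derl3*), with a median log2FC of 0.53. Of the 28 without, 21 were higher, with a median of 0.35. The 13 other genes of the table with such an element had 2 higher and 1 lower, with a median of 0.01. Over all genes tested, 21.5% were higher and 21.6% lower. The difference between members with and without an element was not tested. Among the largest rises, *Hyou1*, *Creld2*, *Hspa5* and *Pdia6* have a match in this window, whereas *Atf6*, *Uggt1*, *Hspa13* and *Sec61a1* have none. The unfolded protein response element, TGACGTGG, lay in 0.649% of all promoters and in 1 member, *Hyou1*, where it overlaps element II. TGATGCAA, a core of the ATF4 amino acid response element, lay in 0.479% of all promoters and in 1 member, *Herpud1*. A match of letters is no measurement of binding. Members without an exact match in these 250 bases may hold other forms of the element or hold it elsewhere.

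Further genes of the secretory pathway were grouped by step. Among the 33 genes for translocation, signal peptidase and N-glycosylation, 21 were higher and 0 lower, with a median log2FC of 0.26. *Rpn1*, a subunit of the oligosaccharyltransferase, rose by 0.59 and *Srprb*, a subunit of the signal recognition particle receptor, by 0.55. Of 22 genes of ER to Golgi transport, 16 were higher and 2 lower (median 0.29). The cargo receptor *Lman1* rose by 0.67 and the coat subunit *Sec23b* by 0.51, while *Ergic3* fell by 0.29 and *Mcfd2*, the partner of *Lman1*, by 0.20 on the log2 scale. *Mcfd2* overlapped between genotypes and lost its call without Cre+ sample 2 or control sample 1, 3 or 4 (limma FDR = 0.0572 to 0.0783). After date adjustment neither *Ergic3* nor *Mcfd2* was called (limma FDR = 0.189 and 0.353).

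The other 32 ER folding genes had 11 higher and 3 lower, and a median of 0.06. *Pdia5* rose by 0.46 and *Erp44*, which retains ERO1 in the early secretory pathway, by 0.43. *Fkbp14*, a prolyl isomerase, fell by 0.99, and *Cnpy2* fell by 0.34. Neither fall was called after date adjustment (limma FDR = 0.168 and 0.0673). Of 27 other ERAD genes, 10 were higher and 2 lower (median 0.12): the ligase *Marchf6* and *Erlin1* rose by 0.39 and 0.38, whereas the ligase *Rnf5* and the lectin *Erlec1* fell by 0.27 and 0.19. *Rnf5* overlapped between genotypes and lost its call when Cre+ sample 1 or 2 or control sample 1 or 3 was left out (limma FDR = 0.052 to 0.0714). *Erlec1* lost it without control sample 3 (limma FDR = 0.0762), where 0 genes of the list were lower. The rises of *Marchf6* and *Erlin1* and the falls of *Rnf5* and *Erlec1* all lost their call after date adjustment (limma FDR = 0.331, 0.0896, 0.376 and 0.134).

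Beyond the sensors, the list of UPR signalling and the PERK-ATF4 arm had 9 of 21 genes higher and 3 lower (median 0.14). Leaving out each sample gave 6 to 10 higher, and after date adjustment 0 were higher and 1, *Nck1*, was lower. *Trib3*, a target of ATF4 and CHOP, rose most, from 36.9 ± 10.6 normalized counts in controls (SD, n = 4) to 137.6 ± 48.2 in Cre+ samples (SD, n = 5), a log2FC of 1.85 (limma FDR = 0.000276, and 0.05 after date adjustment, just missing the threshold). *Mbtps2*, the protease that completes the cleavage of ATF6, rose by 0.36. *Nck1*, an adaptor that binds PERK, fell by 0.85, and *Ppp1r15a* (GADD34), which reverses the phosphorylation of eIF2α, fell by 0.62. *Atf4* mRNA had a log2FC of 0.01 (limma FDR = 0.884) and *Ddit3* (CHOP) one of 0.23 (limma FDR = 0.0332), a call that was lost in several fits that omitted a single sample (limma FDR up to 0.0913) and under 75th percentile scaling (limma FDR = 0.146). *Atf4* and *Ddit3* were named after their values were seen.

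The ATF4 amino acid response list had 9 of 22 genes higher and 5 lower (median 0.11), with changes in both directions. *Slc7a11*, the cystine and glutamate exchanger, rose by 4.56 and *Nupr1* by 1.59, whereas *Asns* (asparagine synthetase) fell by 0.58 and *Cebpg* by 0.27. Neither fall was called after date adjustment (limma FDR = 0.139 and 0.172), and *Cebpg* overlapped between genotypes. Of 29 cytosolic and mitochondrial chaperones, 20 were higher, 1 lower and 8 not called (median 0.24). The count of higher genes was 12 under 75th percentile scaling and 2 after date adjustment. The stress-inducible *Hspa1b*, whose reads can be shared with the near-identical *Hspa1a*, rose by 1.25 with a wide spread, from 525 to 1860 normalized counts in Cre+ samples, the highest in sample 5. *Hsph1* rose by 0.65, and *Dnajb4* fell by 0.91, and both missed the threshold after date adjustment (limma FDR = 0.0596 and 0.0849).

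**Figure D5:**
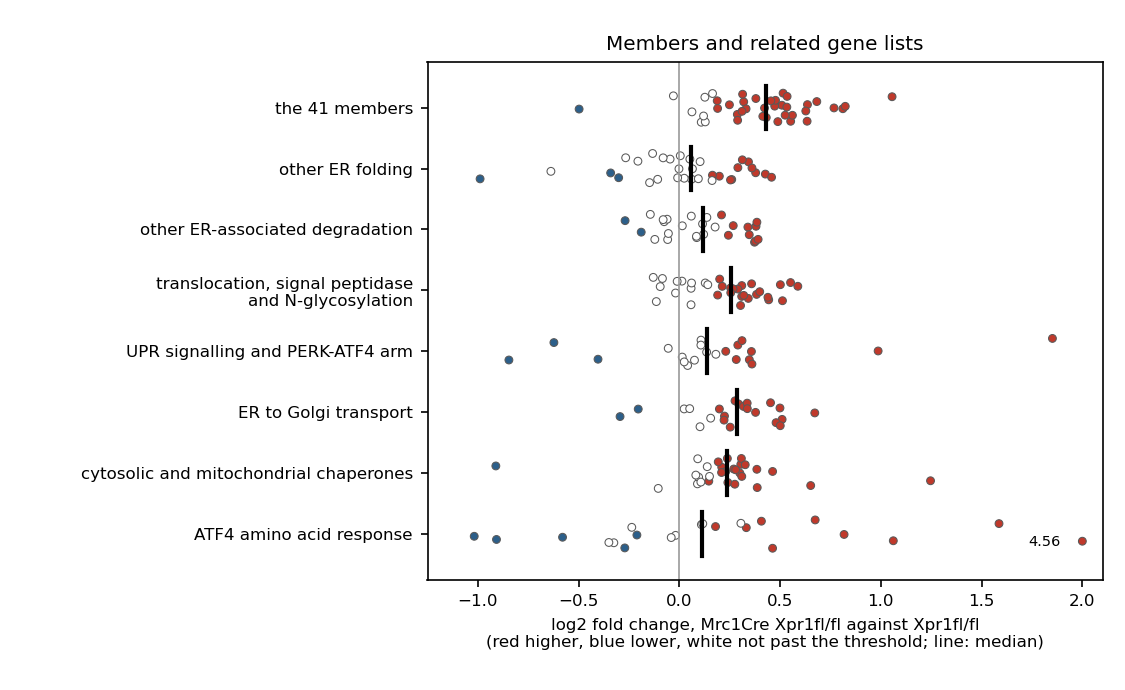
Log2 fold change (x axis) of each gene in the 41 members and in 7 related lists, red where higher, blue where lower and white where not past the threshold, with the median as a black line. The member median (0.43) lies to the right of the list medians (0.06 to 0.29), and *Slc7a11*, drawn at the edge, has a log2FC of 4.56.

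Over the 186 genes of these lists that were tested, 96 were higher (51.6%) and 16 lower, beside 80.5% of the members and 21.5% of all genes tested. After date adjustment, 23 of the 186 were higher and 1 lower, where 4.24% of all genes tested were higher. By list, the higher genes after date adjustment were 7 of 33 for translocation, signal peptidase and N-glycosylation, 5 of 22 for ER to Golgi transport and 4 of 22 for the ATF4 amino acid response. They were 3 of 32 for other ER folding, 2 of 27 for other ERAD, 2 of 29 for the chaperones outside the ER, and 0 of 21 for UPR signalling and the PERK-ATF4 arm.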

How the data were processed

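The authors sequenced paired-end libraries from 45 ng of total RNA, ran FastQC and salmon (GRCm39 index) on the reads, used AnnotationHub for annotation and tximport for import, and tested with DESeq2. Tool versions are not given in the sources used here. What the authors deposited is 1 signal value per gene and sample, a count divided by a DESeq2 normalization factor. Whole reads could not be recovered from them, so no count test was run, and 0 columns belonged to no mapped sample. Symbols and positions came from GENCODE mouse release 39 (GRCm39) and matched 13698 of 13708 genes.

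Genotypes were compared with limma 3.58.1 in R 4.3.3 (lmFit, eBayes with trend, two-sided) on log2(normalized count + 1), which understates changes of low genes, with filter and threshold as in the text. The members and gene lists were chosen with earlier results of these data known. Named in full were preset chaperones, lectins, ERAD and sensor genes and the 2 largest rises and falls past the threshold in each class, and of each further list the same 2 and 2 with at least 50 normalized counts on average. Whether strand was used in counting is not stated: 8 members have exons that overlap a tested gene on the opposite strand, and *Manf* overlaps *Rbm15b* on its own strand. The alternatives were other pseudocounts (0.5 and 10), filters and scalings, limma without trend, the date as a term, the omission of each sample and a block for the replicate number. Pairs of samples correlated at 0.947 to 0.986, and none was treated as a repeat. Promoters were read from the GRCm39 genome in Python 3.11.15, and figures drawn with matplotlib 3.10.9.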

Additional observations from a re-analysis of the deposited data

Results flagged for a closer look

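In 166 groups of 4 or 5 samples (the members and the other named genes by genotype), a check asked whether the extreme sample lay far from the rest by Dixon's test. It did so in 10 groups, where chance gives about 1 in 20, or 8.3, and 8 of these 10 were among the 82 groups of members (4.1 by chance). The groups are genes measured in the same samples and are not independent, so these counts cannot show an excess.

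Cre+ sample 5 was apart in 4 of the flagged groups. It had 27376 normalized counts of *Canx* against 31440 to 32371 in the other Cre+ samples, 5427 of *Uggt1* against 7006 to 7238, 5964 of *Sel1l* against 7387 to 7812, and 85791 of the erythroid gene *Hba-a1* against 25798 to 43152. Of these genes, *Uggt1* alone stayed past the threshold with the date as a term. Cre+ sample 1 had 2280 normalized counts of *Edem2* against 2443 to 2471, and 746.6 of *Pdia5* against 663 to 683.9. Among controls, sample 1 was the lowest for *Uggt1* (3759 against 4289 to 4382) and *Atf6* (2381 against 2616 to 2662). Control sample 4 was the highest for *Dnajc3* (5803 against 5338 to 5385) and *Xbp1* (4717 against 4371 to 4410). The calls on all these genes over all samples, including the lack of one for *Edem2*, were the same in every fit that omitted a sample.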

How the results depend on the processing

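The count of higher members was 33 under both other pseudocounts, without a filter, with a filter of 50, without trend and with the replicate block, 30 after scaling to the 75th percentile, 31 after quantile normalization, and 32 to 35 when each sample was left out. The count of lower members was 1 in all of these. Scaling to the 75th percentile, which moved the median of all genes by −0.0786, gave 1999 higher and 3706 lower genes in place of 2926 and 2939. Leaving out each sample gave 2491 to 3050 higher and 2324 to 3031 lower genes, and 84 to 97 higher and 11 to 17 lower genes over the 7 further lists.

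With the date as a term, 21 members were higher and 0 lower, 577 and 617 of all genes, and 23 and 1 of the further lists. A covariate chosen after seeing the data, the mean log2 value of the erythroid markers, left 0 members higher, 0 lower, 16 and 5 of all genes, and 1 and 0 of the further lists. It followed genotype (r² = 0.854) and inflated the genotype term's variance 6.86 times. Under it 39 members had a log2 fold change above 0, with a median of 0.26, and 18 were higher at an unadjusted limma p under 0.05. The same values over all genes tested were not taken, so they do not set the members apart from other genes. The fold change turned for *Ppp1r15a* (0.135), *Mcfd2* (0.039) and *Hba-a1* (0.325), none of them called. *Hba-a1* is itself one of the erythroid markers averaged in the covariate, so its value in this fit cannot be read as a result. The cause of the changes under this fit was not tested.

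Same-numbered samples deviated with correlations of −0.0333, 0.147, −0.0113 and −0.0313, so the numbers do not pair them. With the replicate block 3146 genes were higher and 3080 lower, and 33 members were higher. Absolute depth is unknown, which limits what can be said of low genes such as *Derl3*.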
